A study of Homo sapiens with 16 samples.

Results

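The cytosolic ribosomal protein genes were followed through 16 RNA-seq libraries of HT-1080, an established human fibrosarcoma line. Members were taken by symbol, as every gene named RPL or RPS with the number or letter of a cytosolic ribosomal protein and not by level or change. They numbered 85 of the 17552 genes with a value, 53 of the large subunit and 32 of the small subunit. Of these, 82 had a mean of at least 1 FPKM (fragments mapped to a gene, scaled by transcript length and by the library's total) over the 16 libraries and were tested, 50 large and 32 small. RPL39L, RPL10L and RPL3L, 3 paralogs, stayed below that level at a mean of 0.0212, 0.0356 and 0.237 FPKM. The lowest members above it were RPL22L1 at 45.4, RPL26L1 at 45.6 and RPL7L1 at 69.2 FPKM.

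The study asked how loss of DCAF8, gain of WDR76 and loss of the chromatin remodeler LSH act in cells given erastin, an inhibitor of the cystine transporter system xc- that drives ferroptosis. The siNS cells received the control siRNA, the siDCAF8 cells an siRNA against DCAF8 (a substrate receptor of a ubiquitin ligase), the oeWDR76 cells an excess of WDR76 (a WD40-repeat protein), and the siDCAF8+siLSH cells siRNAs against DCAF8 and against LSH, which the gene HELLS encodes. Each of these 4 was sampled untreated and after 10 µM erastin for 24 h, as 8 groups of 2 libraries. The oeWDR76 cells have no matched vector control here and were compared with siNS. Every difference below is on the scale of log2(FPKM + 1), each SE is on that scale, and each adjusted p is from limma with Benjamini-Hochberg adjustment over 11260 genes. A member was called at an adjusted p under 0.05. Whether the 2 libraries of each group are separate cultures is not stated, so p-values measure their spread alone, which may be technical.

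The targeted genes went mostly as the labels say. DCAF8 read 38.9 and 40.4 FPKM in siNS, 11.8 and 12.2 in siDCAF8, and 17.4 and 14.3 in siDCAF8+siLSH. WDR76 read 3.52 and 2.89 FPKM in siNS and 268 and 267 in oeWDR76. Untreated, HELLS averaged 4.06 FPKM in siDCAF8+siLSH, below the 7.14 of siDCAF8 but level with the 4.01 of siNS. With erastin it was 0.47 lower in siDCAF8+siLSH than in siNS (adjusted p = 2.14e-05). The targeted genes also moved outside their own genotype. Against siNS, HELLS was higher in oeWDR76 by 1.24 untreated and 1.40 with erastin. Untreated, WDR76 was higher than in siNS by 0.55 in siDCAF8 and by 1.04 in siDCAF8+siLSH. All 10 mesenchymal markers examined were at or above 1 FPKM in every library. The epithelial markers summed to at most 6.18 FPKM, the blood markers to 7.9, the endothelial to 4.41 and the neural to 1.61. Of the blood markers LYZ read 3.31 to 5.2 FPKM. The mesenchymal markers summed to at least 4995 FPKM.

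Each ribosome holds a copy of nearly every ribosomal protein beside the ribosomal RNA, and the genes are spread over many chromosomes. Their mRNAs typically begin with a C followed by a run of pyrimidines, the 5′ terminal oligopyrimidine (TOP) tract, through which mTORC1 and LARP1 set how strongly they are translated. Free ribosomal proteins, RPL5 and RPL11 foremost, can bind MDM2 and so stabilise p53. A handful of members have a close paralog that can replace them in the ribosome or in its assembly.

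The start-site windows of RPSA, RPLP2 and the paralogs RPL22L1, RPL26L1 and RPL7L1 are shown because their levels ranged widely, and those of RPL22, RPL26, RPS27 and RPS27L to set paralogs side by side. Each runs from 25 bases before to 15 bases after the RefSeq start on GRCh38.p14, 5′ to 3′ on the coding strand, and capitals mark the pyrimidine tract.
RPL22, chr1:6199581-6199620, minus strand: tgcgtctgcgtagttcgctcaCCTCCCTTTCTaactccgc
RPL22L1, chr3:170870181-170870220, minus strand: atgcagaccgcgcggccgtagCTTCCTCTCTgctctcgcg
RPL26, chr17:8383179-8383218, minus strand: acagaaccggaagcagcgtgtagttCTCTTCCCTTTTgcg
RPL26L1, chr5:172958704-172958743, plus strand: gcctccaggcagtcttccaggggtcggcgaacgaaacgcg
RPL7L1, chr6:42879591-42879630, plus strand: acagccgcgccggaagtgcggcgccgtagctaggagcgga
RPS27, chr1:153990737-153990776, plus strand: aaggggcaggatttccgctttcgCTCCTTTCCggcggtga
RPS27L, chr15:63157463-63157502, minus strand: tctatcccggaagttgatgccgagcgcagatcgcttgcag
RPLP2, chr11:809942-809981, plus strand: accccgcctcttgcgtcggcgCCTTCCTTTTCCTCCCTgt
RPSA, chr3:39406695-39406734, plus strand: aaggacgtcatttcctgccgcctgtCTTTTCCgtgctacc

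The tract was searched as a C followed by at least 5 further pyrimidines on the coding strand, starting within 5 bases of the annotated start. It was present in 48 of the 68 members whose start was in the RefSeq table, or 70.6%. Among all 9283 tested genes with a start in that table the share was 12%, and among 70 mitochondrial ribosomal protein genes 5.71%. RPL22 and its paralog RPL22L1 both had the tract, while RPL26L1, RPL7L1 and RPS27L had no match in the window. The letters CCGGAA, the core of ETS-factor sites, were searched on both strands over the whole RefSeq window, from 250 bases before to 50 after the start, and stood in 37 of the 68 members, or 54.4%. In 33 of them a match lay outside the tract. Over windows of the same length the core stood in 31.5% of tested genes and in 57.1% of mitochondrial ribosomal protein genes.

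Members were among the most abundant mRNAs. The median of their mean levels was 1242 FPKM, against 12.7 for all tested genes and 45.3 for mitochondrial ribosomal proteins. RPL41, the smallest ribosomal protein, read 3449 and 3597 FPKM in siNS. Together the members took 23.6% and 23.9% of the summed FPKM in the siNS libraries, and 24.3% and 24.4% after erastin. In siDCAF8 they took 23.6% and 24.0%, and after erastin 25% and 25.4%, the highest of the 8 groups. The 4 oeWDR76 libraries were the lowest, at 22.3% and 22.1% untreated and 21.9% and 22.2% with erastin, and did not overlap with the other 12. In siDCAF8+siLSH the untreated libraries were 23.0% and 24.2%, and the treated ones 23.9% and 24.5%. A share of FPKM does not show how much ribosomal protein mRNA a cell holds, and in bulk RNA fewer cells and less RNA per cell cannot be told apart.

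**Figure D1:**
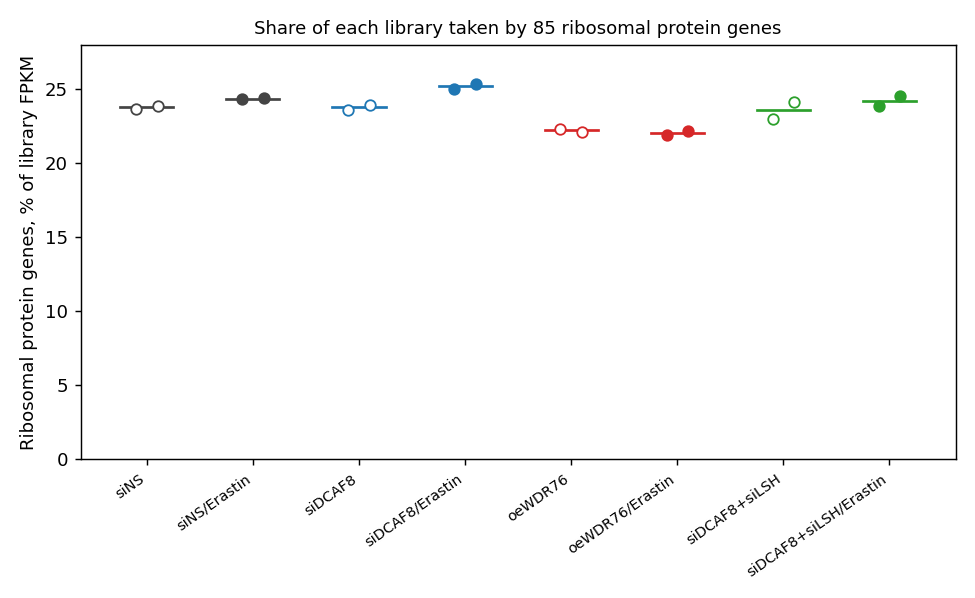
Percent of each library's summed FPKM that came from the 85 members, with 1 point per library, open for untreated and filled for erastin, and a bar at the group mean. The 4 oeWDR76 libraries sit between 21.9% and 22.3%, below the other 12, and the siDCAF8 libraries with erastin are the highest at 25% and 25.4%.

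The 2 untreated siDCAF8+siLSH libraries stood apart from each other in these genes. Of 82 members, 80 were higher in replicate 2, by a median of 0.12 log2, while the median of all genes differed by -0.02. In the other 7 groups the members' median gap was 0.00 to 0.06 log2. In all 8 groups the median member was higher in replicate 2, with 42 to 80 of 82 members higher there.

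As deposited, members spanned a narrower range of levels than most genes. The distance from a member's lowest to its highest group mean had a median of 0.31 log2, against 0.78 for all tested genes, and stayed under 1.5-fold for 69 of 82 members (84.1%, against 27.5% of all tested genes). With each library's linear trend on GC content and transcript length removed, the median range was 0.70 log2 over 81 members and 0.69 over all genes, and 31 members (38.3%) stayed under 1.5-fold, against 36.2% of all genes. The narrower range was thus not found after that correction. The trend was fitted over all genes, whose transcripts have a median of 3195.5 bases, against 843.5 for tested members. In untreated oeWDR76 against siNS, the difference fell with log2 length over all genes (Pearson's r = -0.36) but hardly among members (-0.08). With erastin these values were -0.39 and -0.05. Whether the trend over all genes applies to the short members was not tested. The members are far more abundant than most genes, and the part of abundance was not tested. Between groups 3 members moved by at least 2-fold, RPL22L1 with 1.45, RPL26L1 with 1.15 and RPSA with 1.02 log2. RPL7L1 followed with 0.84, RPL7 with 0.76, RPLP2 with 0.75, RPS28 with 0.67 and RPL36 with 0.66 log2. In the 12 comparisons of 2 groups, RPL6, RPS10 and RPS14 were called in none, RPL22L1 was called in 8 (4 higher, 4 lower), RPS26 was called higher in 7, and RPL10 was called lower in 6. RPS14, a small-subunit protein of the platform, read 1800 and 1905 FPKM in siNS and 1854 and 1878 in oeWDR76.

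**Figure D2:**
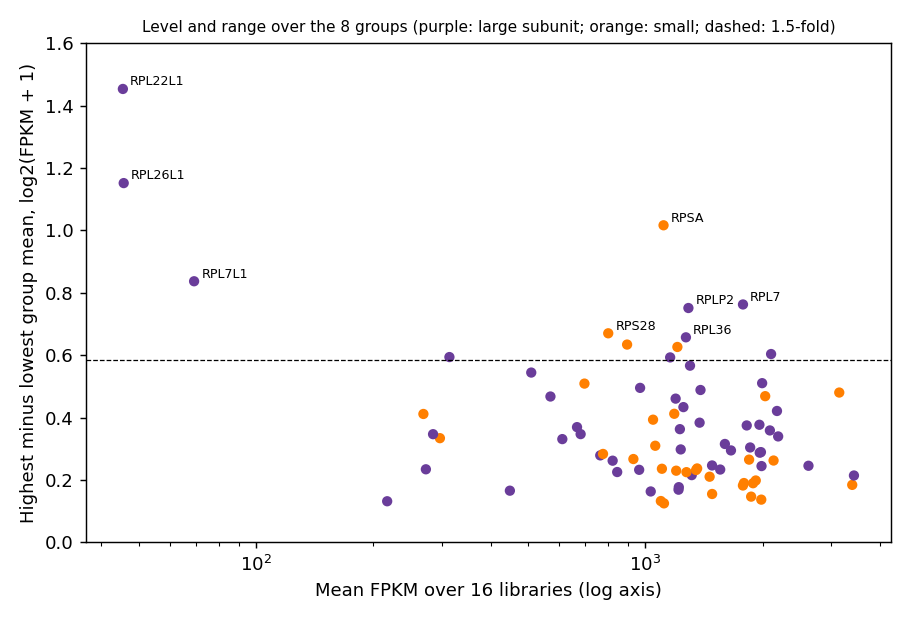
Range of the 8 group means in log2(FPKM + 1) against mean FPKM on a log axis, with 1 point per tested member, purple for the large and orange for the small subunit, and names for those with the widest range. The dashed line marks 1.5-fold. RPL22L1, RPL26L1 and RPL7L1 combine the 3 lowest levels with ranges of 1.45, 1.15 and 0.84, and RPSA stands out at a high level with 1.02.

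In the values as deposited, erastin moved few members in siNS cells. Of 82 members 4 rose and 1 fell, while 37.5% of all tested genes were called, 15.1% as higher and 22.4% as lower. The median change was 0.04 log2, against -0.03 for all genes. RPL26, a protein near the exit of the peptide tunnel, read 1406 and 1430 FPKM untreated and 1664 and 1670 with erastin. The treated libraries were both higher, a rise of 0.23 (SE 0.05, adjusted p = 0.00238). RPL23 rose by 0.15 (adjusted p = 0.0373), RPL38 by 0.14 (adjusted p = 0.0366) and RPL14 by 0.13 (adjusted p = 0.0452). RPL7L1, a paralog of RPL7 that works in large-subunit assembly, fell by 0.16 (adjusted p = 0.0393). The count of 5 dropped to 1 without siNS replicate 1, and to 2 without any single one of siNS replicate 2, siNS/Erastin replicate 1 or siNS/Erastin replicate 2. The rise of RPL26 was called in all 4 of these fits, and the other 4 calls were each lost in at least 1 of them. With median-ratio scaling 13 rose and 0 fell, and with quantile normalization 5 rose and 6 fell. With the trend on GC content and length removed 49 rose and 1 fell. The share of all genes called in such refits, or without a single library, is not given here or below. Those counts therefore describe the members alone.

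In siDCAF8 cells erastin raised 23 of 82 members and lowered 1, with 40.9% of all tested genes called, 18.3% as higher and 22.5% as lower. The median change was 0.08 log2, against -0.02 for all genes. The risers included 14 of 50 large-subunit and 9 of 32 small-subunit members. RPL22L1, a paralog of RPL22 that is thought to act outside the ribosome as well, read 31.6 and 28.6 FPKM untreated and 44.5 and 51.4 with erastin, without overlap. That was a 1.57-fold rise of 0.65 (SE 0.09, adjusted p = 6.7e-05). RPL9 rose by 0.31 (adjusted p = 0.00163) and RPS3A, near the mRNA exit of the small subunit, by 0.27 (adjusted p = 0.00237). RPS27A, which is made as a fusion with ubiquitin, rose by 0.28 (adjusted p = 0.00271), and RPS13 by 0.28 (adjusted p = 0.00105). RPL26L1 read 52.3 and 54.0 FPKM untreated and 47.2 and 41.9 with erastin, a fall of 0.25 (adjusted p = 0.026). The fall of RPL26L1 was not called without siDCAF8 replicate 1 or 2 or without siDCAF8/Erastin replicate 2 (adjusted p = 0.0695, 0.106 and 0.22). The count of 24 was 9 without siDCAF8 replicate 1 and 15 without siDCAF8/Erastin replicate 2, and with quantile normalization 18 rose and 6 fell.

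In oeWDR76 cells 1 member was called after erastin, at a background of 1.45% of all tested genes (0.471% higher and 0.977% lower). It was RPS27L, a paralog of RPS27 and a known p53 target, which read 243 and 236 FPKM untreated and 287 and 288 with erastin. The rise of 0.26 (adjusted p = 0.0285) was lost without any single one of the 4 libraries. In siDCAF8+siLSH cells 5 members rose and 0 fell, with 20.2% of all genes called, 10.6% as higher and 9.54% as lower. The risers were RPL28 by 0.23, RPL13 by 0.18, RPL29 by 0.16, RPS9 by 0.15 and RPL3, at the peptidyl transferase centre, by 0.15 (adjusted p = 0.0194 to 0.0457). In limma 11 members had an unadjusted p under 0.05, and quantile normalization gave 5 rises and 1 fall. The 5 calls became 0 and 9 without the untreated siDCAF8+siLSH replicates 1 and 2, and 1 and 0 without the treated replicates 1 and 2.

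**Figure D3:**
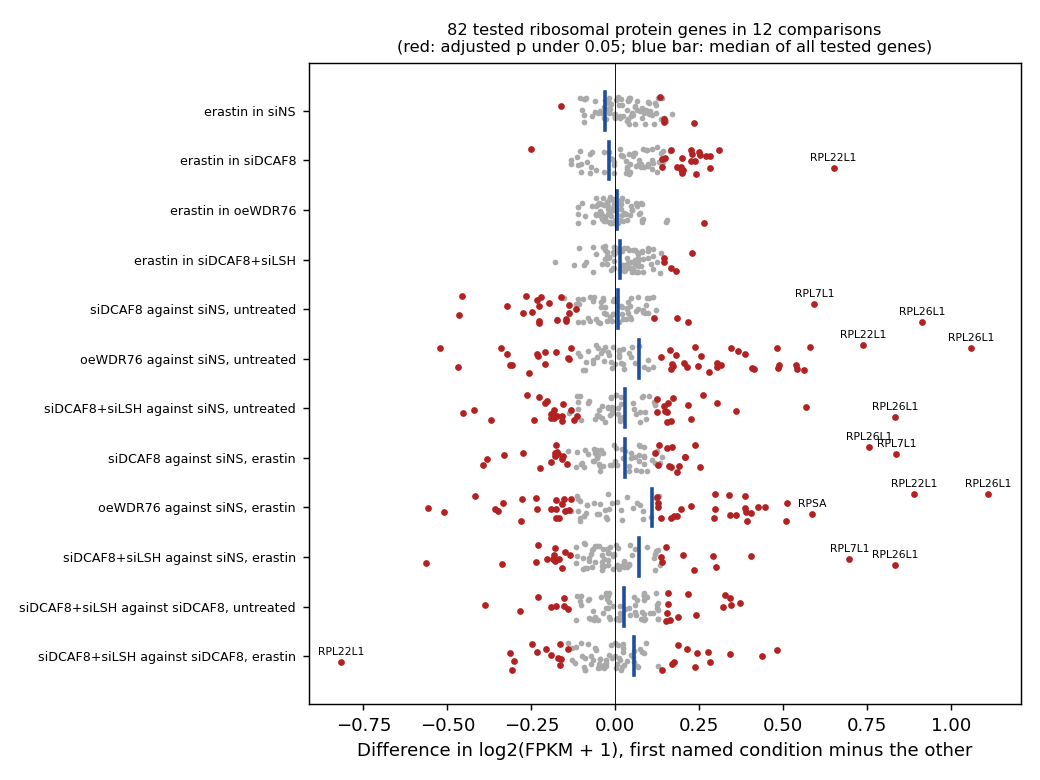
Change of each tested member in log2(FPKM + 1), with 1 point per member and 1 row per comparison, red where the adjusted p was under 0.05. Blue bars are medians of all tested genes. Most members sit near 0 with erastin, and the oeWDR76 comparison with erastin spreads from -0.56 to 1.11.

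Base composition moved with the erastin changes and also between libraries of 1 group. In log2 per 10% of GC content, with length also fitted, the library trends were -0.03 and 0.03 in siNS. With erastin they were -0.01 and -0.08, so these groups overlapped. They were 0.06 and -0.004 in siDCAF8 against -0.11 and -0.11 with erastin, and 0.16 and 0.18 in oeWDR76 against 0.14 and 0.13. In siDCAF8+siLSH they were -0.10 and -0.16 against -0.04 and -0.06. GC content of the transcripts was known for 81 members. The change with erastin fell with GC content in siNS (Pearson's r = -0.39), siDCAF8 (-0.65) and oeWDR76 (-0.32), and rose with it in siDCAF8+siLSH (0.63). Over 11086 tested genes the same values were -0.16, -0.46, -0.20 and 0.31. These are descriptions across genes that share the same libraries. The 23 risers of siDCAF8 had a median GC content of 45.6%, against 51.7% for the members not called, while the 5 risers of siDCAF8+siLSH had 56.2%, against 48.5%. When each library's linear trend on GC content and transcript length was taken out, 49 members were called higher and 1 lower in siNS, and 46 and 1 in siDCAF8. In siDCAF8+siLSH it was then 9 and 0, and in oeWDR76 1 and 0. The corrected medians of the members were 0.12 log2 in siNS and 0.12 in siDCAF8, against 0.01 for all genes in both. The share of all genes called after this correction is not given, so the corrected counts have no background beside them. The correction also took out a trend on length. In log2 per doubling of transcript length it was 0.039 and 0.036 in siNS, and 0.070 and 0.061 with erastin. In siDCAF8 it was 0.10 and 0.07, and with erastin 0.09 and 0.09. Tested members had a median GC content of 48.9%, against 49.2% for all tested genes, and shorter transcripts (843.5 against 3195.5 bases). The parts of GC content and of length in the corrected counts were not told apart. What sets either trend was not tested.

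**Figure D4:**
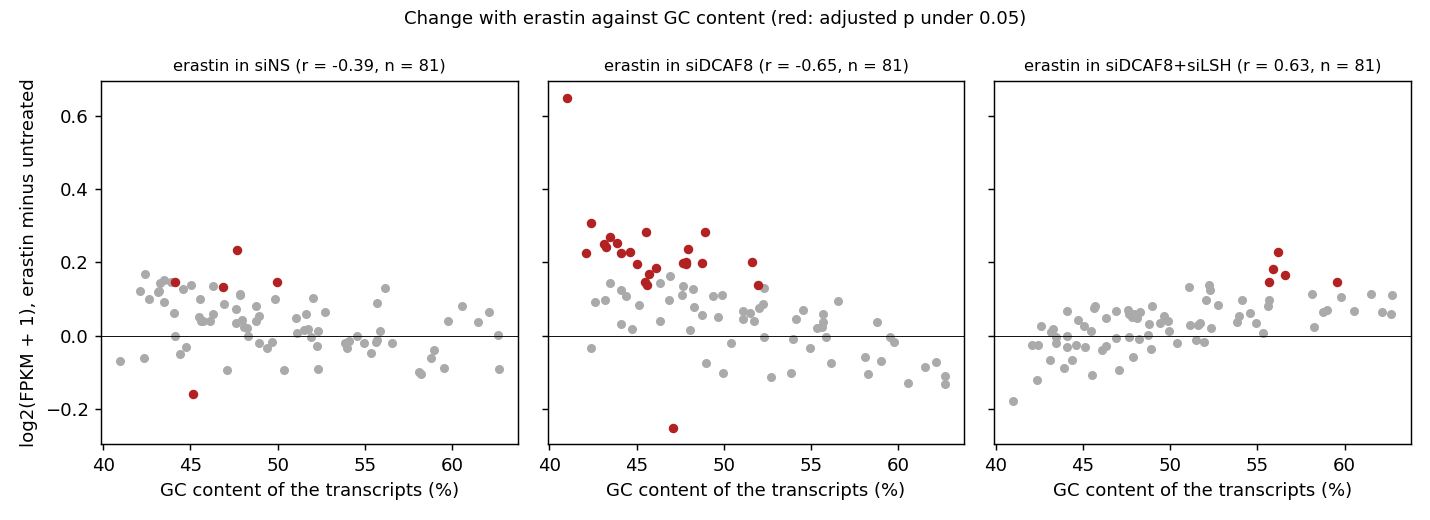
Change with erastin in log2(FPKM + 1) against the GC content of the transcripts in percent, with 1 point per member (n = 81), red where the adjusted p was under 0.05, for siNS, siDCAF8 and siDCAF8+siLSH. The slope is downward in the first 2 panels (r = -0.39 and -0.65) and upward in the third (r = 0.63).

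Between genotypes 21 to 47 members were called, mostly with small differences. Against siNS, untreated siDCAF8 cells had 5 members higher and 19 lower, with 61% of all genes called, 31% as higher and 29.9% as lower. Untreated oeWDR76 cells had 29 higher and 15 lower, with 73.6% of all genes called (41.6% higher, 32% lower). Untreated siDCAF8+siLSH cells had 16 higher and 20 lower, with 66.8% called (35.9% higher, 30.9% lower). With erastin siDCAF8 had 15 and 14, with 64.8% of all genes called (34.8% higher, 30% lower). The treated counts were 27 and 20 in oeWDR76, with 76.2% called (45.2% higher, 31% lower), and 10 and 13 in siDCAF8+siLSH, with 66% called (39.3% higher, 26.7% lower). The share of members called was 29.3%, 53.7% and 43.9% untreated and 35.4%, 57.3% and 28% treated, each below the share of all genes. At most 3 members differed from siNS by 1.5-fold or more in any of them, against 15.2% to 33.3% of all tested genes. After correction for GC content and length 20 of 81 members did in untreated and 40 in treated oeWDR76. The members' medians there were then -0.43 and -0.58 log2, against -0.01 for all genes in both. The share of all genes past 1.5-fold was not taken after the correction. The 3 untreated comparisons share the siNS libraries and the 3 treated ones the siNS/Erastin libraries, so they are given side by side and not compared. Without siNS replicate 2 the siDCAF8+siLSH count of 36 was 18. Its split turned with the library used, at 24 higher and 9 lower without siDCAF8+siLSH replicate 1, and 6 and 30 without replicate 2. Without siNS/Erastin replicate 1 the treated siDCAF8 count of 29 was 16, and without siDCAF8+siLSH/Erastin replicate 1 the treated siDCAF8+siLSH count of 23 was 15.

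The split into higher and lower depended on scaling. With median-ratio scaling it was 23 and 22 in untreated oeWDR76, 9 and 26 in untreated siDCAF8+siLSH, 9 and 17 in treated siDCAF8, 18 and 43 in treated oeWDR76, and 6 and 32 in treated siDCAF8+siLSH. With quantile normalization it was 26 and 16 in untreated siDCAF8, 19 and 36 in untreated oeWDR76, 28 and 17 in untreated siDCAF8+siLSH, 40 and 6, 23 and 37, and 22 and 8 in the treated groups in the same order. With the trend on GC content and length removed, untreated and treated oeWDR76 had 10 and 63, and 5 and 68, and untreated siDCAF8 34 and 10. The median of all genes itself stood 0.11 log2 above siNS in treated oeWDR76. The share of all genes called under each alternative is not given here or below, so these counts describe the members alone. The direction in which the members as a group moved is thus not fixed by these data. Many of the genes named below, though not all, are given with their own corrected values.

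As deposited, the low-abundance paralogs RPL22L1 and RPL26L1 had the widest ranges, and RPL7L1 came after the abundant RPSA. RPL26L1 read 26.7 and 28.8 FPKM in siNS, 52.3 and 54.0 in siDCAF8, 58.4 and 59.3 in oeWDR76, and 45.2 and 55.8 in siDCAF8+siLSH. Every library of the 3 other genotypes was above both siNS libraries. The differences were 0.91 (SE 0.08, adjusted p = 1.28e-07), 1.06 (adjusted p = 7.79e-09) and 0.83 (adjusted p = 2.4e-07), the second a 2.08-fold rise. With erastin they were 0.76, 1.11 and 0.83. Its counterpart RPL26 read 1406 and 1430 FPKM in siNS, 1416 and 1492 in siDCAF8, 1605 and 1577 in oeWDR76, and 1486 and 1585 in siDCAF8+siLSH. The differences were 0.04 (adjusted p = 0.579), 0.17 (adjusted p = 0.00906) and 0.11 (adjusted p = 0.0643). That of oeWDR76 was -0.24 once corrected for GC content and length. After removal of the GC and length trend RPL26L1 still stood 1.03, 0.63 and 0.76 above untreated siNS in siDCAF8, oeWDR76 and siDCAF8+siLSH, all called.

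RPL7L1 read 57.1 and 53.1 FPKM in siNS and 84.8 and 82.2 in siDCAF8, a rise of 0.59 (SE 0.06, adjusted p = 2.42e-07). In siDCAF8+siLSH it read 82.7 and 81.4, a rise of 0.57 (adjusted p = 2.64e-07), while oeWDR76 at 55.8 and 58.4 overlapped with siNS. Untreated, the rise was thus found only in the 2 genotypes that received the DCAF8 siRNA. With erastin it was 0.84 in siDCAF8 and 0.70 in siDCAF8+siLSH, and the corrected values were 0.79 and 0.65. Treated oeWDR76, at 59.1 and 56.3 FPKM, was also above treated siNS, at 47.2 and 51.2, without overlap. RPL7 itself gave -0.01 (adjusted p = 0.916) in untreated siDCAF8.

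RPL22L1 went in opposite directions. It read 45.0 and 39.2 FPKM in siNS, 31.6 and 28.6 in siDCAF8, 30.4 and 30.4 in siDCAF8+siLSH, and 72.5 and 69.0 in oeWDR76. It was lower in siDCAF8 by 0.47 (adjusted p = 0.000415), was 0.45 lower in siDCAF8+siLSH (adjusted p = 0.000446), and was higher in oeWDR76 by 0.74 (adjusted p = 2.04e-06). None of these groups overlapped with siNS, and the corrected values were -0.40, -0.58 and 0.69. With erastin oeWDR76 stayed above siNS at 71.5 and 78.5 FPKM and siDCAF8+siLSH below it at 24.4 and 29.3, while siDCAF8 reached 44.5 and 51.4. The value of siDCAF8+siLSH against siDCAF8 with erastin was a fall of 0.82 (adjusted p = 3.05e-06). RPL22 kept to 247 to 307 FPKM in the 8 untreated libraries.

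**Figure D5:**
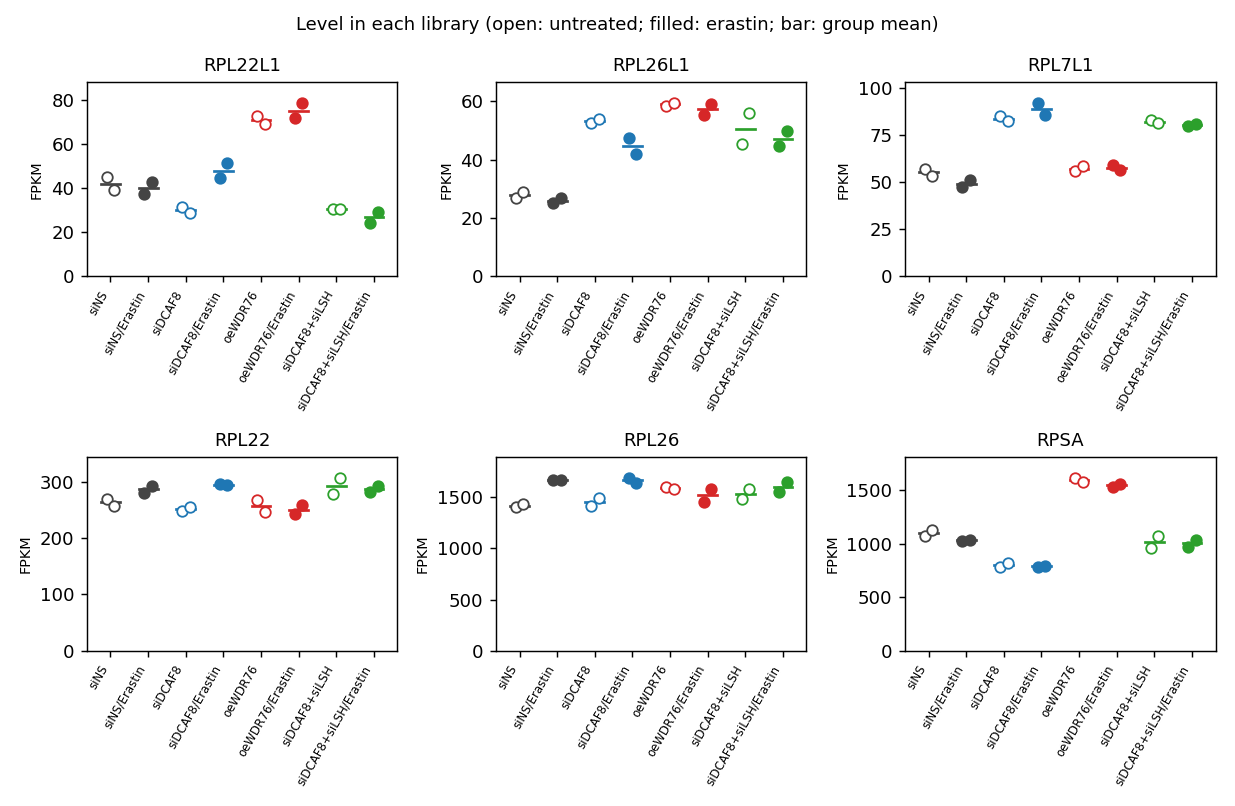
FPKM in each library for the 3 paralogs with the widest range, for RPL22 and RPL26, and for RPSA, with open points for untreated, filled points for erastin and bars at group means. RPL26L1 is above siNS in the other genotypes. RPL7L1 is highest in the groups that received the DCAF8 siRNA, and with erastin oeWDR76 is also above siNS. RPL22L1 is highest in oeWDR76 at 69.0 to 78.5.

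The other paralogs moved less. RPS27L was lower than siNS in untreated siDCAF8 by 0.27 (adjusted p = 0.000581) and in oeWDR76 by 0.23 (adjusted p = 0.00138), and its corrected values were -0.16 and -0.49. RPS27 gave -0.08 and 0.01 (adjusted p = 0.178 and 0.829). RPL36AL read 285 and 285 FPKM in siNS, 368 and 392 in oeWDR76, and 336 and 348 in siDCAF8+siLSH, higher by 0.41 (adjusted p = 1.26e-05) and by 0.26 (adjusted p = 0.0013). Corrected for GC content and length those values were -0.02 and 0.12, and neither was called.

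RPSA, a small-subunit protein also known as a laminin receptor, was the abundant member with the widest swing. It read 1077 and 1127 FPKM in siNS, 788 and 817 in siDCAF8, 966 and 1074 in siDCAF8+siLSH, and 1621 and 1583 in oeWDR76. It was lowest in siDCAF8, 0.46 below siNS (SE 0.05, adjusted p = 1.47e-06). In siDCAF8+siLSH, where DCAF8 was also less depleted, it stood 0.34 above siDCAF8 (adjusted p = 6.71e-05). The treated libraries repeated this, at 0.38 below siNS and 0.34 above siDCAF8. In oeWDR76 with erastin RPSA stood 0.59 above siNS (adjusted p = 2.75e-08). The corrected value there was 0.13, while that of siDCAF8 untreated stayed at -0.38.

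Other small-subunit members moved by less. RPS26, which contacts mRNA at the exit channel, read 576 and 587 FPKM in siNS, 662 and 689 in siDCAF8, 805 and 822 in oeWDR76, and 665 and 774 in siDCAF8+siLSH. It was higher by 0.22 (adjusted p = 0.00459), 0.48 (adjusted p = 1.24e-06) and 0.30 (adjusted p = 0.000254), and corrected values were 0.34, -0.01 and 0.25. RPS28 was 0.34 above siDCAF8 in siDCAF8+siLSH (adjusted p = 6.82e-05) and RPS4X 0.28 below siNS in siDCAF8 (adjusted p = 0.000318). RPS6, the classic S6 kinase substrate, RPS19, whose loss causes Diamond-Blackfan anaemia, and RPS3 were not called against siNS in untreated siDCAF8 or oeWDR76, with differences of -0.12 to 0.08. Corrected for GC content and length, RPS6 gave 0.21 and -0.42 in these.

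Among large-subunit members some fell and others rose in untreated oeWDR76 cells. RPL4, on the tunnel wall, read 2254 and 2185 FPKM in siNS and 1630 and 1576 in oeWDR76, a fall of 0.47 (adjusted p = 3.6e-07) without overlap. RPL7 fell by 0.52 (adjusted p = 5.91e-07), RPL21 by 0.32 (adjusted p = 7.19e-05) and RPL13A by 0.31 (adjusted p = 0.000122), and on the small subunit RPS3A by 0.34 (adjusted p = 8.46e-05). Corrected for GC content and length these falls were larger, from -0.50 for RPS3A to -0.85 for RPL7. RPLP2, an acidic stalk protein that recruits elongation factors, read 1174 and 1200 FPKM in siNS and 1835 and 1713 in oeWDR76, a rise of 0.58 (adjusted p = 2.71e-08). RPL39 rose by 0.56 (adjusted p = 4.47e-07) and RPL36 by 0.54 (adjusted p = 1.71e-07). Those 3 rises did not outlast the correction, which gave -0.22 for RPLP2, 0.01 for RPL39 and -0.25 for RPL36.

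Proteins of the stalk gave unlike values. In untreated oeWDR76, RPLP0, its base, gave -0.08 (adjusted p = 0.164) and RPLP1 0.17 (adjusted p = 0.0221), beside the 0.58 of RPLP2, and the corrected values were -0.48, -0.48 and -0.22. With quantile normalization RPLP1 gave -0.06 (adjusted p = 0.321). In untreated siDCAF8, RPLP0 rose by 0.18 (adjusted p = 0.00474), while RPLP1 gave 0.04 and RPLP2 0.02. Without siNS replicate 1 the rise of RPLP0 was 0.15 (adjusted p = 0.0607). The pair that joins the 5S ribosomal RNA was split in oeWDR76. RPL5 read 1260 and 1245 FPKM in siNS and 1026 and 1068 in oeWDR76, a fall of 0.26 (adjusted p = 0.000415), and RPL11 read 1714 and 1741 against 2179 and 2207, a rise of 0.34 (adjusted p = 1.72e-05). With the GC and length trend removed both were lower, RPL5 at -0.57 and RPL11 at -0.18. In treated siDCAF8 both rose, RPL5 by 0.17 (adjusted p = 0.0119) and RPL11 by 0.24 (adjusted p = 0.000852), with corrected values of 0.17 and 0.29.

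The core members RPL10 and RPL3 were lower in several genotypes. RPL10, a late-joining protein at the subunit interface, read 739 and 758 FPKM in siNS, 630 and 647 in siDCAF8, and 553 and 606 in siDCAF8+siLSH, lower by 0.23 (adjusted p = 0.00086) and by 0.37 (adjusted p = 6.12e-06). RPL3 was lower in untreated siDCAF8 by 0.14 (adjusted p = 0.018), in oeWDR76 by 0.23 (adjusted p = 0.000283) and, at 0.16 lower, in siDCAF8+siLSH (adjusted p = 0.00751). Corrected for GC content and length RPL10 gave -0.21 and -0.35, and RPL3 gave -0.09 (adjusted p = 0.059), -0.65 and -0.11. With quantile normalization RPL10 gave -0.09 in siDCAF8 (adjusted p = 0.0771) and RPL3 -0.08 in siDCAF8+siLSH (adjusted p = 0.076).

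With siDCAF8+siLSH set against siDCAF8, 13 members were higher and 8 lower untreated, at 48.2% of all genes called (26.4% higher, 21.7% lower). After erastin it was 12 and 13, at 49.7% (30.4% higher, 19.3% lower). These groups differ in more than LSH. DCAF8 was 0.37 higher in siDCAF8+siLSH untreated (adjusted p = 0.00156) and 0.54 higher with erastin (adjusted p = 4.54e-05). WDR76 was higher by 0.48 and 0.47. Which of these the members follow was not tested. Untreated, RPL36AL was 0.37 higher, RPL39 0.33 and RPL38 0.32, and RPL13 was 0.28 lower and RPS2 0.23 lower. With erastin RPS28 was 0.48 higher (adjusted p = 1.73e-06) and RPL38 0.44 (adjusted p = 4.2e-06), and RPS3A and RPL7 were each 0.31 lower. The untreated count was 12 without siDCAF8 replicate 1. It was 29 higher and 4 lower without siDCAF8+siLSH replicate 1, and 6 higher and 13 lower without replicate 2 of that group, so the direction turned with the library used. The treated count of 25 was 16 without siDCAF8+siLSH/Erastin replicate 1. Median-ratio scaling gave 7 and 11 untreated and 7 and 23 treated, and quantile normalization 12 and 13, and 11 and 21. With the GC and length trend removed the splits were 2 and 33 untreated and 5 and 55 treated. RPL36AL, RPL39 and RPL38 then gave 0.08, 0.03 and 0.11 untreated, none called.

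The erastin response itself was compared between genotypes. Between siDCAF8 and siNS 4 members differed, 2 in each direction, against 20.8% of all genes (11% more positive, 9.84% more negative). Between oeWDR76 and siNS 3 were more negative, against 14.1% of all genes (9.04% and 5.11%). Between siDCAF8+siLSH and siDCAF8 14 differed, 2 more positive and 12 more negative in the co-depleted cells, against 23.5% of all genes (14.2% and 9.24%). RPL22L1 differed in the first and the last of these. Its response was 0.72 higher in siDCAF8 than in siNS (SE 0.13, adjusted p = 0.0015) and 0.83 lower in siDCAF8+siLSH than in siDCAF8 (SE 0.13, adjusted p = 0.00201). It gained 0.65 with erastin in siDCAF8, and its 2 libraries were on average lower with erastin than without in siNS and in siDCAF8+siLSH. Median-ratio scaling gave 1 more positive and 2 more negative in the first comparison and 0 and 13 in the last, and quantile normalization gave 5 and 1, 2 and 3, and 4 and 13 in the 3. Corrected for GC content and length, the splits were 1 and 2, 0 and 31, and 0 and 4. Single libraries moved the counts. The 4 were 1 without siNS replicate 1, siNS/Erastin replicate 1 or siDCAF8 replicate 1, and 2 without siNS/Erastin replicate 2 or siDCAF8/Erastin replicate 1. The 3 were 1 without any one of the 4 siNS libraries or of the untreated oeWDR76 libraries, and 0 without oeWDR76/Erastin replicate 1. The 14 were 3 without siDCAF8 replicate 1 or siDCAF8+siLSH/Erastin replicate 1, 7 and 6 without siDCAF8/Erastin replicates 1 and 2, and 8 without siDCAF8+siLSH/Erastin replicate 2. Without siDCAF8+siLSH replicate 1 they were 21. Leaving out siDCAF8+siLSH replicate 2 gave 9, of which 6 were then more positive.

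Genes of neighbouring functions were counted in the same fit. Of 44 ribosome assembly factors, 39 were higher and 0 lower in untreated siDCAF8 and 40 and 0 in siDCAF8+siLSH, or 88.6% and 90.9% higher, against 31% and 35.9% of all tested genes. Their medians were 0.45 and 0.59 log2, while the ribosomal proteins had medians of -0.03 and -0.01. NOLC1, a nucleolar chaperone for small ribonucleoproteins, averaged 18.2 FPKM in siNS and 97.6 in siDCAF8, higher by 2.36 (adjusted p = 1.38e-14). NCL, nucleolin, averaged 255 and 451 FPKM, higher by 0.82 (adjusted p = 1.56e-09). In untreated oeWDR76 33 were higher (75%, against 41.6% of all genes) and 3 lower, and NOP56, a core protein of the methylation machinery of ribosomal RNA, averaged 134 FPKM against 49.3 (adjusted p = 1.16e-10). The assembly factors in these 3 comparisons kept between 24 and 41 higher and 6 or fewer lower under median-ratio scaling, quantile normalization and the correction for GC content and length.

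Erastin raised 20 of the 44 assembly factors (45.5%, against 15.1% of all genes) and lowered 0 in siNS. GNL3, nucleostemin, averaged 81.5 FPKM without and 128 with it, a rise of 0.65 (adjusted p = 2.39e-07). In siDCAF8 16 rose (36.4%, against 18.3%) and 4 fell. In oeWDR76 1 rose, and in siDCAF8+siLSH 3 rose (6.82%, below the 10.6% of all genes). Of 78 mitochondrial ribosomal proteins, 59 were higher (75.6%, against 41.6% of all genes) and 3 lower in untreated oeWDR76, a split of 28 and 20 once corrected for GC content and length. Their transcripts are longer than those of cytosolic members, with a median of 1314 bases against 843.5, and 3195.5 over all tested genes.

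Other TOP mRNAs encode translation factors and RNA-binding proteins, of which 26 were tested. In siDCAF8 14 rose (53.8%, against 18.3% of all genes) and 1 fell with erastin, among them EIF4A2 by 0.54 (adjusted p = 1.63e-05), EIF3E by 0.52 (adjusted p = 1.92e-05) and EIF3M by 0.46 (adjusted p = 6.43e-05), subunits of initiation factors. In siNS 5 rose, a share of 19.2% near the 15.1% of all genes, and 0 fell. In untreated oeWDR76 8 were higher and 15 lower, or 57.7% lower against 32% of all genes, and EIF4B averaged 127 FPKM against 289 in siNS (adjusted p = 1.58e-12). EEF1A1, the main elongation factor, averaged 2976 against 4757 FPKM (adjusted p = 4.42e-09). These falls outnumbered the rises under the 3 scaling alternatives too, at 17 against 5 to 7.

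Of 19 regulators of TOP translation and mTORC1, 7 were higher and 7 lower in untreated siDCAF8, 36.8% each way and near the 31% and 29.9% of all genes. DDIT4, an inhibitor of mTORC1 that stress induces, averaged 207 FPKM in siNS and 67.6 in siDCAF8 (adjusted p = 2.08e-08), and 50.9 in siNS with erastin (adjusted p = 2.11e-08). Of 15 genes on the axis of MDM2 and p53, 2 were higher and 11 lower in untreated siDCAF8+siLSH against siDCAF8, or 73.3% lower against 21.7% of all genes. CDKN1A, the cell cycle inhibitor, averaged 126 FPKM there against 215 (adjusted p = 2.85e-07), and 377 in siNS. The split was 1 or 2 higher and 11 lower under the 3 scaling alternatives.

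Reads of ribosomal proteins are hard to place, since most of these genes have processed copies in the genome. Of 83 members listed on a reference chromosome, 8 (9.64%) were listed by the authors away from their RefSeq gene, against 42 of 11017 tested genes (0.381%). These are RPL7, RPL21, RPS2, RPS12, RPS18, RPS25, RPS27 and RPS28, and at each listed position GENCODE 29 annotates a processed pseudogene. RPL7 was listed at chr1:96678783-96679640 on GRCh38, where RPL7P9 lies, and RPL21 at chr10:120354645-120355226, where RPL21P16 lies. Read-through genes that share exons with members had values of their own, at a mean of 39.3 FPKM for RPL36A-HNRNPH2, 9.60 for RPL17-C18orf32 and 3.11 for RPS10-NUDT3. The levels of these members are therefore uncertain, and so are those of the paralog pairs, whose reads may be split between them.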

How the data were processed

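RNA of the 16 libraries was amplified with Smart-seq v4 chemistry and sequenced on a BGISEQ500, per the labels' protocols. The authors deposited FPKM per gene with 2 decimals. StringTie on GRCh38 is named in the submitters' processing notes, while the aligner, the annotation and the version of StringTie were not given in the sources used here. Counts were not used here, so depth per library is unknown and no counting interval is given. An FPKM is relative to the rest of its library, and a gene that gains a large share lowers all others.

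The table held 24107 rows and 17552 genes with values, after repair of 28 symbols that had become dates. Genes whose mean reached 1 FPKM, 11260 in number, were fitted on log2(FPKM + 1) in limma 3.58.1 (R 4.3.3), with 8 group means in 1 model, a mean-dependent prior (8 residual and 8.569 prior degrees of freedom), two-sided tests and Benjamini-Hochberg adjustment within each of 15 comparisons. Of these, 12 set 2 groups against each other and 3 set erastin responses against each other. The fit was tested on simulated data. Tables, sequences and figures were made with Python 3.11.15, pandas 2.3.3, numpy 2.4.6 and matplotlib 3.10.9.

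The members and gene lists were chosen with earlier results of these data known. Named members are the 5 largest rises and the 5 largest falls among those called in a comparison, without overlap where 2 groups were compared, plus members with a fixed role and paralog pairs. In the other lists up to 3 called genes with the lowest p in a comparison could be named. The checks of listed positions, of read-through genes and of the gap between the untreated siDCAF8+siLSH libraries were chosen after their values were seen, as were the members that the counts of calls single out (RPL6, RPS10, RPS14). Alternatives were a pseudocount of 0.1, no filter, a mean of at least 5 FPKM, median-ratio scaling, quantile normalization, a replicate block, a fit limited to the compared groups, removal of each library's linear trend on GC content and transcript length (81 of 82 members and 11086 genes had both), and leaving out each library. Some members' own values are not reported here.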

Additional observations from a re-analysis of the deposited data

Results flagged for a closer look

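For 21 pairs of a member and a comparison, the test of the difference itself found that erastin changed the member by a different amount in 2 genotypes (limma on log2(FPKM + 1), adjusted over 11260 genes). The 14 that the naming rule covers follow, and the other 7 were all more negative in siDCAF8+siLSH than in siDCAF8. RPL22L1 was among them in both comparisons that involve siDCAF8. Its change with erastin was 0.72 more positive in siDCAF8 than in siNS (adjusted p = 0.0015), and -0.83 in siDCAF8+siLSH relative to siDCAF8 (adjusted p = 0.00201). These calls held under every alternative and without any single library, and the values corrected for GC content and length were 0.60 and -0.65.

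Between siDCAF8 and siNS the response of RPL7L1 differed by 0.24 (adjusted p = 0.0452), that of RPL38 by -0.25 (adjusted p = 0.0252) and that of RPLP2 by -0.21 (adjusted p = 0.0487). Corrected for GC content and length, RPL7L1 gave 0.18 and was no longer called (adjusted p = 0.0791), while RPL38 at -0.33 and RPLP2 at -0.19 were. Between oeWDR76 and siNS the response differed by -0.30 for RPL26 (adjusted p = 0.0132), by -0.26 for RPL23 (adjusted p = 0.0295) and by -0.26 for RPL38 (adjusted p = 0.0285). The corrected values were -0.41, -0.39 and -0.41. Both comparisons use the siNS libraries. Each of these 6 calls was lost without at least 1 of the libraries it rests on.

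Between siDCAF8+siLSH and siDCAF8 the response was more positive for RPL28, by 0.30 (adjusted p = 0.0276), and for RPL8, by 0.25 (adjusted p = 0.029). Corrected values were 0.13 and -0.05, neither called. It was more negative for RPS27A, at -0.39 (adjusted p = 0.00959), RPL39, at -0.34 (adjusted p = 0.0151), RPL9, at -0.33 (adjusted p = 0.0201), and RPS13, at -0.32 (adjusted p = 0.0132). With the correction RPS27A gave -0.31 and RPS13 -0.30, both called, and RPL39 gave -0.20 and RPL9 -0.17, neither called. The call of RPS27A held under every alternative and without any single library, while those of the other 5 were each lost without at least 1 library. The part of GC content in these differences was not tested beyond this correction.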

How the results depend on the processing

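Groups of 2 libraries limit the precision, and depth is unknown, so its part in the values cannot be judged. The pseudocount of 0.1 left the 15 counts of called members within 1.5 times their values and all 111 named calls in place. A majority was taken as turned when 1 direction exceeded the other by more than 1.5 times in both fits, a margin chosen after the data were seen, and more even splits also changed sides as given with the counts. The cause of the changes below was not tested.

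Without the filter 89 of the 111 named calls stayed and 22 were lost. Erastin then called 2 members in siNS, 0 in oeWDR76 and 2 in siDCAF8+siLSH. Untreated siDCAF8+siLSH against siNS had 23 and against siDCAF8 13, treated siDCAF8 against siNS had 18, and the 3 response differences had 1, 0 and 4. A mean of at least 5 FPKM gave 9 for erastin in siNS.

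Median-ratio scaling kept 103 named calls. It gave 13 for erastin in siNS, 2 for erastin in siDCAF8+siLSH and 38 for treated siDCAF8+siLSH against siNS. Untreated siDCAF8+siLSH against siDCAF8 had 18, and the majority turned. Quantile normalization kept 98. It gave 11 for erastin in siNS, 46 for treated siDCAF8 and 5 for the response of oeWDR76, and turned the majority in untreated siDCAF8 (42) and oeWDR76 (55) against siNS. A fit of only the groups compared kept 97. It gave 9 and 0 for erastin in siNS and siDCAF8+siLSH, 18 and 9 for untreated siDCAF8+siLSH against siNS and siDCAF8, and 4 for its response against siDCAF8.

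Removal of the GC and length trend kept 91 named calls, lost 15 and turned 5. The turned values were -0.22 for RPLP2 and -0.25 for RPL36 in untreated oeWDR76, -0.048 for RPL36AL and -0.11 for RPS26 in treated oeWDR76, and -0.054 for RPL8 in the response of siDCAF8+siLSH against siDCAF8. Erastin called 50 in siNS, 47 in siDCAF8 and 9 in siDCAF8+siLSH. Against siNS the majority turned in untreated siDCAF8 (44) and oeWDR76 (73), and treated oeWDR76 had 73 and treated siDCAF8+siLSH 53. Against siDCAF8, siDCAF8+siLSH had 35 untreated, with the majority turned, and 60 treated. The responses of oeWDR76 and siDCAF8+siLSH had 31 and 4.

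Over all genes, libraries with the same number did not deviate together in most pairs of groups. Over 28 pairs of groups the correlation of their deviations was -0.21 to 0.39, with a median of 0.02, and 7 were over 0.1, although the median member was higher in replicate 2 in all 8 groups. With a replicate block erastin called 11 in siNS, the other 14 counts stayed within 1.5 times and all 111 named calls stayed.

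Leaving out each library gave 1 to 2 for erastin in siNS, 9 to 27 in siDCAF8, 0 in oeWDR76 and 0 to 9 in siDCAF8+siLSH. Against siNS it gave 17 to 22, 37 to 42 and 18 to 36 in untreated siDCAF8, oeWDR76 and siDCAF8+siLSH, and 16 to 23, 37 to 42 and 15 to 17 with erastin. Against siDCAF8, siDCAF8+siLSH gave 12 to 33 untreated and 16 to 21 treated. The response differences gave 1 to 4, 0 to 3 and 3 to 21. Without siDCAF8+siLSH replicate 2 the majority turned in that untreated comparison (19) and in its response against siDCAF8 (9). A group left with 1 library was assumed to vary like the others. Of 500 such refits of named members, 400 kept their call, 100 lost it and 0 changed sign.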
